A study of Mus musculus with 6 samples.

Results

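The genes described here carry peptides from the inside of a cell to its surface on major histocompatibility complex (MHC) class I molecules, or belong to the immunoproteasome, the form of the proteasome that immune cells and interferon-exposed cells assemble. The 10 genes were taken by symbol from a table of 21358 entries: the classical heavy chains H2-K1 and H2-D1, their light chain B2m, the peptide pump Tap1 and Tap2, the loading factor Tapbp, the immunoproteasome subunits Psmb8, Psmb9 and Psmb10, and the class I transactivator Nlrc5. They were compared between whole B16F10 tumors of 3 mice given adoptive cell transfer with IL-2 (ACT + IL-2) and 3 mice given adoptive cell transfer with NKTR-214 (ACT + NKTR-214), all harvested at day 12. B16F10 is a melanoma line from C57/BL6 mice, here grown under the skin of C57/BL6 hosts, which per the study's methods were females aged 6 to 8 weeks. All hosts were irradiated to deplete their lymphocytes. When tumors had reached at least 150 mm3, all hosts received activated splenocytes of pmel-1 mice, whose CD8 T cells carry a transgenic T cell receptor for the melanocyte antigen gp100. IL-2 was given for 3 consecutive days of a 9-day cycle at 0.4 mg/kg, and NKTR-214, an IL-2 with releasable polyethylene glycol chains, at 0.8 mg/kg once per cycle. No untransferred or vehicle-treated tumor was analysed here, so the values compare these treatments with each other only.

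A class I molecule is a heavy chain bound to beta-2 microglobulin, the product of B2m, and it holds a short peptide that CD8 T cells can read. The peptides are cut from cellular proteins by the proteasome, pumped into the endoplasmic reticulum by the TAP1-TAP2 transporter, and loaded with the help of tapasin, the product of Tapbp. Interferon gamma induces most of these genes, and in immunoproteasomes PSMB8, PSMB9 and PSMB10 take the places of the constitutive catalytic subunits PSMB5, PSMB6 and PSMB7. B16 melanoma cells are known for low class I expression that interferon gamma can raise, and the pmel-1 receptor reads its gp100 peptide on H2-Db, the product of H2-D1.

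In ACT + NKTR-214 tumors, H2-K1 and H2-D1 were 2.23-fold and 2.13-fold higher by the ratio of mean FPKM, and Tap2, Psmb8 and Tapbp were 1.57-fold, 1.56-fold and 1.5-fold higher. These 5 genes passed the test of the treatment groups (limma on log2(FPKM + 1) over 14172 genes, Benjamini-Hochberg adjusted p under 0.05), and 0 of the 10 genes were lower, also at an unadjusted p under 0.05. Of all genes tested, 20.7% were higher and 8.28% were lower at the same threshold. B2m, Tap1, Psmb9, Psmb10 and Nlrc5 had ratios of 1.55, 1.19, 1.15, 1.11 and 1.14 and did not pass. FPKM counts fragments relative to exon length and to the size of the library, so that levels of different genes can be set side by side. The median log2 fold change of the 10 genes was 0.61, against 0.05 over all genes tested, and 10 of the 10 were above 0 against 55.7% of all genes tested. The split of calls over all genes depended on scaling: 71.5% of called genes were higher on FPKM as deposited, 45.1% after scaling to a common 75th percentile and 37.0% after quantile normalization. With the median of all genes subtracted, the median of the 10 genes was 0.57 as deposited, 0.53 after 75th percentile scaling and 0.48 after quantile normalization.

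The start regions of class I genes are known to hold short motifs through which interferon and NF-kappaB pathways act. Windows are shown for the 4 genes in which a motif match was found, H2-K1, H2-D1, B2m and Psmb8, and for Tap1, whose window overlaps that of its neighbour Psmb9. RefSeq promoter windows on GRCm38.p6, from 250 bases before to 50 bases after the start, were matched for 8 of the 10 genes, the others being Tap2 and Nlrc5. The motifs were chosen after the windows had been seen and were searched on both strands: AANNGAAA, a core of interferon regulatory factor (IRF) sites, TTCNNNGAA, the gamma-activated sequence (GAS) of interferon gamma response genes, and GGGNNTTCC, a kappaB form. Of 32544 mouse promoter windows of the same length, 23.9% held the IRF form, 8.33% the GAS form and 5.85% the kappaB form. Capitals mark matches to these 3 motifs, and each sequence reads 5′ to 3′ on the strand of its gene. The windows lie at chr17:34000298-34000597 on the minus strand for H2-K1, and on the plus strand at chr17:35262844-35263143 for H2-D1, chr2:122147437-122147736 for B2m, chr17:34197945-34198244 for Psmb8 and chr17:34187306-34187605 for Tap1.
H2-K1: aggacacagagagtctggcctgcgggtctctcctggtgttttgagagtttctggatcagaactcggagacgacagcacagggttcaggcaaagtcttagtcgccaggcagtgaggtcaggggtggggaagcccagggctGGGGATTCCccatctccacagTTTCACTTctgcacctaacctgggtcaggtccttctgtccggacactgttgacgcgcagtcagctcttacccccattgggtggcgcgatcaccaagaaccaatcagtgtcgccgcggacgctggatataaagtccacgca
H2-D1: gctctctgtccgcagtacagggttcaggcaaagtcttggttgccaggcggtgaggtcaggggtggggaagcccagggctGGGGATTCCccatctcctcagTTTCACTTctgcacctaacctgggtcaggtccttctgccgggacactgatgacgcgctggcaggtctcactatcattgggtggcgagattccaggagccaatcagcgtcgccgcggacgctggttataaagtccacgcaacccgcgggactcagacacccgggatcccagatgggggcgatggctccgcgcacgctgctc
B2m: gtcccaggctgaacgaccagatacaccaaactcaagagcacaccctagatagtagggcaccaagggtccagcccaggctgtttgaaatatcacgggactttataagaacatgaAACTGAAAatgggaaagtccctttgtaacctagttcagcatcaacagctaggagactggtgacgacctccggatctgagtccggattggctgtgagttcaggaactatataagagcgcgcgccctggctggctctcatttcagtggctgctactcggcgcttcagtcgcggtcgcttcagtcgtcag
Psmb8: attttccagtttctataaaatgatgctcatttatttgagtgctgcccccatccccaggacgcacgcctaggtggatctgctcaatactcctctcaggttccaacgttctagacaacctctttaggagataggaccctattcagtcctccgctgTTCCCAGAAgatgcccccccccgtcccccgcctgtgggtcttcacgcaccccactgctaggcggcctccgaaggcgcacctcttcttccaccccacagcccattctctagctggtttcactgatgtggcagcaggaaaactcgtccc
Tap1: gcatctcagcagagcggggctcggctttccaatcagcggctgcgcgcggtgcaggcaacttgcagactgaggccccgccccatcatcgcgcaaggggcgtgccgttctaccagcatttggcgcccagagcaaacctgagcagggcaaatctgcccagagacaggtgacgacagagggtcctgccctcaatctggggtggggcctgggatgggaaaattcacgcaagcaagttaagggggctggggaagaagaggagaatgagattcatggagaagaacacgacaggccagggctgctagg

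The windows of the heavy chains H2-K1 and H2-D1 hold the same arrangement: a kappaB match that starts at -111 and -171 bases from the start, followed by an IRF match on the other strand at -90 and -150. RefSeq gives H2-K1 another start, from which the same matches lie at -125 and -104. From the first base of the kappaB match to the last of the IRF match is 29 bases in both, with 1 base differing, and the longest identical run of the windows is 47 bases. A window with both motifs was found for 437 of all promoters (1.34%). B2m holds an IRF match at -137, and Psmb8 holds the only GAS match of the 8 genes, at -97. The window of Tap1 is also that of Psmb9, read in the other direction: these neighbours start back to back, and their windows share 275 of 300 bases. Among the 8 genes, 3 held the IRF form, 1 the GAS form and 2 the kappaB form. The windows of Tapbp, which passed the test, and of Tap1, Psmb9 and Psmb10, which did not, held none of the 3 motifs. Another motif, the CCAAT box, was in 6 of the 8 windows, Tap1 and Psmb9 counting the same site, against 37.4% of all promoters. A match is a description of letters, and binding was not measured in these tumors.

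H2-K1 (chromosome 17, 33996017 to 34000347, minus strand, GENCODE vM21 on GRCm38), a classical heavy chain, reached 555, 382 and 432 FPKM in the ACT + IL-2 tumors and 997, 1126 and 932 FPKM in the ACT + NKTR-214 tumors, always given here in the order of replicates 1, 2 and 3. The groups did not overlap, and the lowest ACT + NKTR-214 tumor stood above the highest ACT + IL-2 tumor by more than either group's SD (456 ± 88.8 and 1018 ± 98.5 FPKM, SD, n = 3). On the log2 scale H2-K1 rose by 1.17 (SE 0.26, limma adjusted p = 0.00304). H2-D1 (chromosome 17, 35262730 to 35267499, plus strand), the other classical heavy chain of this strain, was at 564, 384 and 421 FPKM in ACT + IL-2 and at 951, 1093 and 873 FPKM in ACT + NKTR-214. Its groups did not overlap either, with a log2 fold change of 1.10 (SE 0.26, limma adjusted p = 0.00473). After quantile normalization these log2 fold changes were smaller, at 0.62 for H2-K1 (adjusted p = 0.0097) and 0.46 for H2-D1 (adjusted p = 0.0357), and Tap2, at 0.54, stood above H2-D1. By rank of FPKM within each tumor, H2-K1 went from places 20 to 24 to place 10 in all 3 ACT + NKTR-214 tumors, and H2-D1 from 19 to 25 to places 12 and 13.

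B2m (chromosome 2, 122147686 to 122153083, plus strand), the light chain shared by all class I molecules, was already among the most abundant transcripts, at places 1 to 4 by FPKM in every tumor. Its levels were 1787, 1249 and 1438 FPKM in ACT + IL-2 and 2317, 2467 and 2162 FPKM in ACT + NKTR-214. The groups did not overlap, but the log2 fold change of 0.65 (SE 0.34, 95% interval -0.08 to 1.37) did not pass the test (limma adjusted p = 0.174). It passed when genes under a mean of 1 FPKM were left out (adjusted p = 0.032), after 75th percentile scaling (adjusted p = 0.037) and with limma without its intensity trend (adjusted p = 0.00797). It did not pass after quantile normalization (log2 fold change 0.36, limma adjusted p = 0.276), with no minimum FPKM (adjusted p = 0.515) or with any tumor left out. As a measure of light against heavy chains, the ratio of B2m to the sum of H2-K1 and H2-D1 was 1.60, 1.63 and 1.69 in ACT + IL-2 and 1.19, 1.11 and 1.20 in ACT + NKTR-214. The groups of this ratio did not overlap, with a log2 difference of -0.49 (two-sided exact permutation test, p = 0.1, which is the smallest p that 3 against 3 tumors allow, and 0.12 after adjustment over the 6 ratios compared). The ratio of H2-K1 to H2-D1 moved much less, from 1.002 ± 0.0221 to 1.05 ± 0.0189 (SD, n = 3), by 0.07 on the log2 scale (exact permutation p = 0.1, adjusted 0.12).

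**Figure D1:**
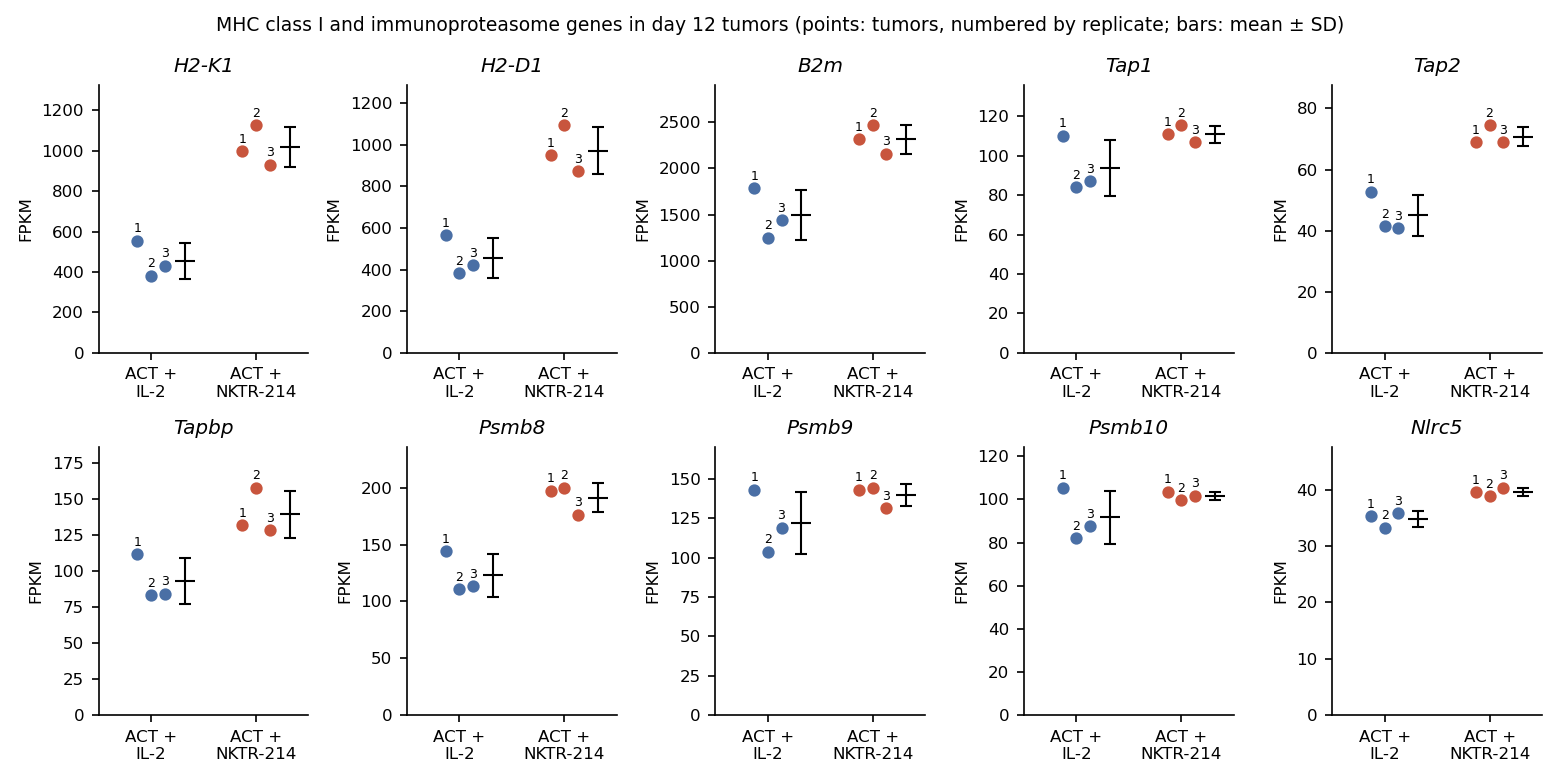
FPKM of the 10 class I and immunoproteasome genes in each day 12 tumor, 1 panel per gene with its own vertical axis from 0. Points are tumors numbered by replicate and bars are the mean ± SD of 3 tumors. Relative to their own axes, H2-K1 and H2-D1 show the widest gaps between groups, while in Tap1, Psmb9 and Psmb10 the ACT + IL-2 replicate 1 tumor lies within or above the ACT + NKTR-214 tumors.

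The plot of levels by tumor also shows that ACT + IL-2 replicate 1 was the highest tumor of its group for every gene but Nlrc5. That tumor was also highest in its group for the sum of all FPKM values and for the summed level of 9 of the 10 marker lists, all but melanocyte markers, for example pan-leukocyte (78.3 against 40.2 and 37.9 FPKM), T cell (22.5 against 10.03 and 9.21), macrophage (167 against 75.2 and 66.4) and fibroblast markers (401 against 178 and 141). The part of these cells in the levels of that tumor was not tested.

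Of the genes of peptide transport and loading, Tap2 and Tapbp rose and Tap1 did not pass. Tap2 (chromosome 17, 34203527 to 34216321, plus strand), a chain of the peptide pump, was at 52.8, 41.5 and 40.7 FPKM in ACT + IL-2 and at 68.9, 74.4 and 69.1 FPKM in ACT + NKTR-214. Every ACT + NKTR-214 tumor was above every ACT + IL-2 tumor, and the log2 fold change was 0.65 (SE 0.15, limma adjusted p = 0.00475). Tap1 (chromosome 17, 34187553 to 34197225, plus strand), the partner chain, was at 110.1, 84.0 and 87.0 FPKM in ACT + IL-2 and at 111, 115 and 107 FPKM in ACT + NKTR-214. Its groups overlapped through ACT + IL-2 replicate 1, and a log2 fold change of 0.25 (95% interval -0.10 to 0.61) did not pass (limma adjusted p = 0.288). Within each tumor, the ratio of Tap1 to Tap2 was 2.09, 2.02 and 2.14 in ACT + IL-2 and 1.61, 1.55 and 1.55 in ACT + NKTR-214. This ratio was lower in every ACT + NKTR-214 tumor, with a log2 difference of -0.41 (exact permutation p = 0.1, adjusted 0.12), in a pair of genes whose products form a single transporter.

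Tapbp (chromosome 17, 33915899 to 33929292, plus strand), which holds the empty heavy chain next to the pump, was at 112, 83.5 and 84.3 FPKM in ACT + IL-2 and at 132, 158 and 129 FPKM in ACT + NKTR-214. The groups did not overlap, and the log2 fold change was 0.58 (SE 0.18, limma adjusted p = 0.0223). The call was lost without ACT + IL-2 replicate 2 (log2 fold change 0.51, adjusted p = 0.0586), ACT + IL-2 replicate 3 (0.52, adjusted p = 0.12) or ACT + NKTR-214 replicate 2 (0.49, adjusted p = 0.117). Of 5 other genes of peptide trimming and loading, 1 rose and 0 fell, against 20.7% higher and 8.28% lower of all genes tested. The gene that rose was Tapbpl, a tapasin relative that edits peptides outside the loading complex, at 17.7 ± 3.76 against 30.05 ± 3.02 FPKM (SD, n = 3; log2 fold change 0.75, limma adjusted p = 0.0024). The lowest of the 5 was the chaperone Canx, at -0.37 (adjusted p = 0.118), which passed as lower after 75th percentile scaling and after quantile normalization.

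Of the immunoproteasome subunits, Psmb8 alone passed. Psmb8 (chromosome 17, 34197721 to 34201454, plus strand), the chymotrypsin-like subunit LMP7, was at 144, 111 and 113 FPKM in ACT + IL-2 and at 198, 200.1 and 176 FPKM in ACT + NKTR-214. Again the groups were apart, and the log2 fold change was 0.64 (SE 0.18, limma adjusted p = 0.0136). The call was lost, at log2 fold changes of 0.59, 0.62 and 0.61, when ACT + IL-2 replicate 3 (adjusted p = 0.0844), ACT + NKTR-214 replicate 1 (adjusted p = 0.061) or ACT + NKTR-214 replicate 2 (adjusted p = 0.0511) was left out. Psmb9 (chromosome 17, 34181987 to 34187764, minus strand), the subunit LMP2, was at 143, 104 and 119 FPKM in ACT + IL-2 and at 143, 144 and 131 FPKM in ACT + NKTR-214. Its log2 fold change was 0.21 (95% interval -0.17 to 0.58, adjusted p = 0.425), and it was close to 0 after quantile normalization. Psmb10 (chromosome 8, 105935735 to 105938444, minus strand), the subunit MECL-1, was at 105, 82.1 and 87.5 FPKM in ACT + IL-2 and at 104, 99.6 and 102 FPKM in ACT + NKTR-214, with a log2 fold change of 0.15 (95% interval -0.19 to 0.50, adjusted p = 0.52). The log2 fold change of Psmb10 was 0.03 after 75th percentile scaling and 0.0013 after quantile normalization. For both Psmb9 and Psmb10, ACT + IL-2 replicate 1 reached the level of the ACT + NKTR-214 tumors. Psmb8 and Psmb9 had near-equal FPKM in ACT + IL-2, with ratios of Psmb8 to Psmb9 of 1.01, 1.06 and 0.953, and stood apart in ACT + NKTR-214, with ratios of 1.38, 1.38 and 1.34. These last ratios were chosen after their values were seen and were not tested.

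**Figure D2:**
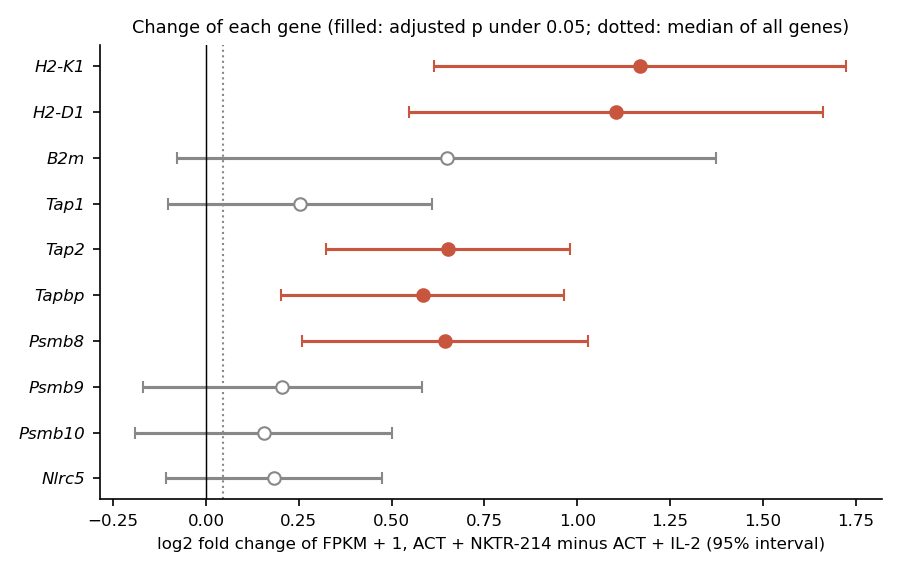
Log2 fold change of FPKM + 1 (ACT + NKTR-214 minus ACT + IL-2) of the 10 genes, with 95% intervals from limma, and filled points for an adjusted p under 0.05. The filled points are H2-K1, H2-D1, Tap2, Psmb8 and Tapbp, and the interval of B2m is the widest and reaches just below 0.

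The plot of fold changes places the heavy chains at 1.10 and 1.17, a middle set of B2m, Tap2, Psmb8 and Tapbp between 0.58 and 0.65, and Tap1, Psmb9, Nlrc5 and Psmb10 between 0.15 and 0.25. The intervals of neighbours in this order overlap, and differences between genes were tested only as the ratios given here. Groups did not overlap in 7 of the 10 genes, each of them higher in ACT + NKTR-214, and in 6 after 75th percentile scaling, where Nlrc5 overlapped. Of all genes tested, 42.4% did not overlap in either direction and 27.1% did not overlap and were higher.

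Nlrc5 (chromosome 8, 94434356 to 94527272, plus strand), which drives transcription of class I genes, varied least among tumors. It was at 35.2, 33.2 and 35.9 FPKM in ACT + IL-2 and at 39.6, 38.9 and 40.3 FPKM in ACT + NKTR-214. The groups did not overlap, with means of 34.8 ± 1.37 and 39.6 ± 0.725 FPKM (SD, n = 3), but the log2 fold change of 0.18 (95% interval -0.11 to 0.47) did not pass (limma adjusted p = 0.351), and after 75th percentile scaling the groups overlapped. It was the least abundant of the 10 genes in every tumor.

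The constitutive subunits whose places the immunoproteasome subunits take did not pass in either direction (0 higher and 0 lower of 3; also 0 at an unadjusted p under 0.05). Their log2 fold changes were 0.02 for Psmb5, 0.14 for Psmb6 and -0.23 for Psmb7, and Psmb7 passed as lower after 75th percentile scaling and after quantile normalization. Psmb8 stood to Psmb5 at ratios of 12.4, 12.0 and 10.5 in ACT + IL-2 and 17.9, 19.0 and 16.9 in ACT + NKTR-214, a log2 difference of 0.63 (exact permutation p = 0.1, adjusted 0.12). The groups did not overlap, though the level of Psmb5 itself is uncertain, since other genes, a Psmb5 pseudogene among them, hold 57.1% of its 50-base windows. The ratio of Psmb10 to Psmb7 was 1.40, 1.43 and 1.33 in ACT + IL-2 and 1.68, 1.83 and 1.94 in ACT + NKTR-214, a log2 difference of 0.39 (exact permutation p = 0.1, adjusted 0.12). Here the numerator differed by 0.15 and the denominator by -0.23, and neither gene passed on its own. The ratio of Psmb9 to Psmb6 overlapped between groups, at 1.58 ± 0.0844 and 1.65 ± 0.1002 (SD, n = 3; exact permutation p = 0.5, adjusted 0.5).

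**Figure D3:**
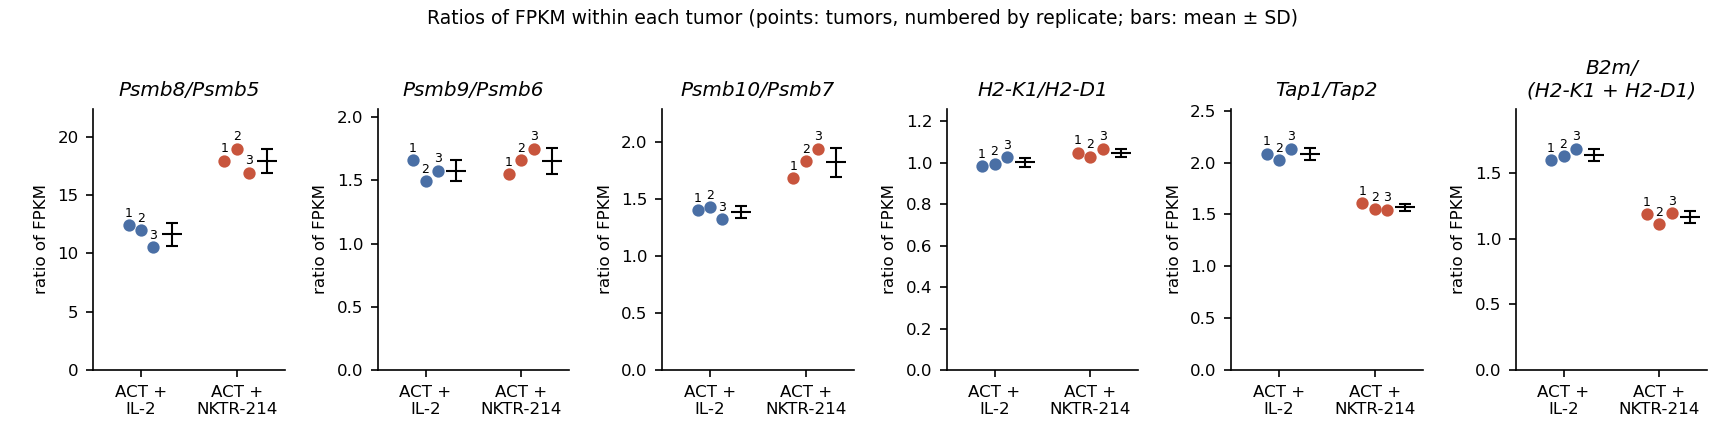
Ratios of FPKM within each tumor for 6 pairs, 1 panel per ratio; points are tumors numbered by replicate and bars are mean ± SD of 3 tumors. Tap1/Tap2 and B2m/(H2-K1 + H2-D1) are lower and Psmb8/Psmb5 and Psmb10/Psmb7 higher in every ACT + NKTR-214 tumor, while Psmb9/Psmb6 overlaps.

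The plot of ratios does not depend on a scaling factor between tumors, since both genes of a ratio come from the same tumor. In 5 of the 6 ratios the groups did not overlap.

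Few other proteasome genes passed. Of 11 other subunits of the 20S core, 0 were higher and 0 lower (at an unadjusted p under 0.05, 0 higher and 1 lower), from -0.35 for Psma3 to 0.12 for Psma2, with a median of -0.14. After 75th percentile scaling and after quantile normalization, 6 of these 11 were lower. Of 9 activators and assembly factors, 1 was higher and 0 lower, with a median of -0.01, against 20.7% higher and 8.28% lower of all genes tested. The higher gene was Psme1, the alpha chain of the interferon-inducible PA28 cap, at 102 ± 14.7 and 147 ± 4.28 FPKM (SD, n = 3; log2 fold change 0.53, limma adjusted p = 0.0288), a call lost when any 1 of 4 tumors was left out: ACT + IL-2 replicate 3 or any ACT + NKTR-214 tumor. Its partner chain Psme2 was at 0.36 (adjusted p = 0.0828), with 59.3% of its transcript windows shared with other genes, and Psme4, which caps nuclear proteasomes, was lowest at -0.34 (adjusted p = 0.107).

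Interferon gamma signalling genes, a list of 8, held 5 that rose and 0 that fell, with a median log2 fold change of 0.75. Ifng itself, the cytokine, was at 2.25, 1.05 and 1.46 FPKM in ACT + IL-2 and at 7.83, 7.32 and 5.57 FPKM in ACT + NKTR-214 (log2 fold change 1.63, limma adjusted p = 8.29e-06). The lowest ACT + NKTR-214 tumor had more than the highest ACT + IL-2 tumor. Ifngr1, a receptor chain, was at 12.0 ± 4.01 and 65.7 ± 19.99 FPKM (log2 fold change 2.35, adjusted p = 1.93e-06). The others that rose were the kinases Jak1 and Jak2 and the feedback inhibitor Socs1, at 0.87, 0.64 and 0.87.

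Irf1, which binds IRF motifs in class I promoters, was at 83.9, 66.0 and 61.3 FPKM in ACT + IL-2 and at 60.3, 62.1 and 74.5 FPKM in ACT + NKTR-214. The groups overlapped, and the log2 fold change of -0.09 did not pass (limma adjusted p = 0.724).

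Of 10 factors that act on class I promoters, 3 rose and 0 fell (at an unadjusted p under 0.05, 1 was lower), with a median of 0.10. Of all genes tested, 20.7% were higher and 8.28% lower. The 3 factors that rose were Nfkb1 and Rela, subunits of NF-kappaB, at 0.79 (adjusted p = 0.0014) and 0.62 (adjusted p = 0.0081), and Irf2, which binds IRF motifs, at 0.68 (adjusted p = 0.00448). Ciita, the class II counterpart of Nlrc5, was at 0.13 (adjusted p = 0.554), and Rfxap, a subunit of the RFX complex, was lowest at -0.36 (adjusted p = 0.0938).

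Most other class I heavy chains, the nonclassical ones, also rose. Of 13 listed, 12 were tested, 11 rose and 0 fell, with a median log2 fold change of 0.98. The largest was H2-M2, from 0.823 ± 0.340 to 11.8 ± 2.73 FPKM (SD, n = 3; log2 fold change 2.81, limma adjusted p = 7.09e-08). H2-Q1 did not pass, at 0.0802 ± 0.0243 and 0.170 ± 0.0259 FPKM (log2 fold change 0.11, adjusted p = 0.303). Reads of 50 bases cannot always tell these genes apart: the entries H2-Q7 and H2-Q9 stood at a ratio of 0.990 to 0.991 in all 6 tumors, and H2-Q6 and H2-Q8 at 0.971 to 0.973.

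The classical genes share sequence as well. Of the 50-base windows of their transcripts, 8.11% for H2-K1 and 14.3% for H2-D1 also occur in other genes, most often in class I genes, against 0 for B2m, Psmb9, Psmb10 and Nlrc5. The entry H2-L, a gene that the H-2b haplotype of C57/BL6 mice lacks, was listed at 0.855 to 0.886 times the FPKM of H2-D1 in every tumor, so the level of H2-D1 depends on how shared reads were counted, which is not given in the sources used here. Tap2, Tapbp and Psmb8 shared 12.6%, 21.0% and 4.95% of their windows. The gene models of Psmb9 and Tap1 overlap by 212 bases on opposite strands, and without a stated strand setting reads there cannot be assigned.

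**Figure D4:**
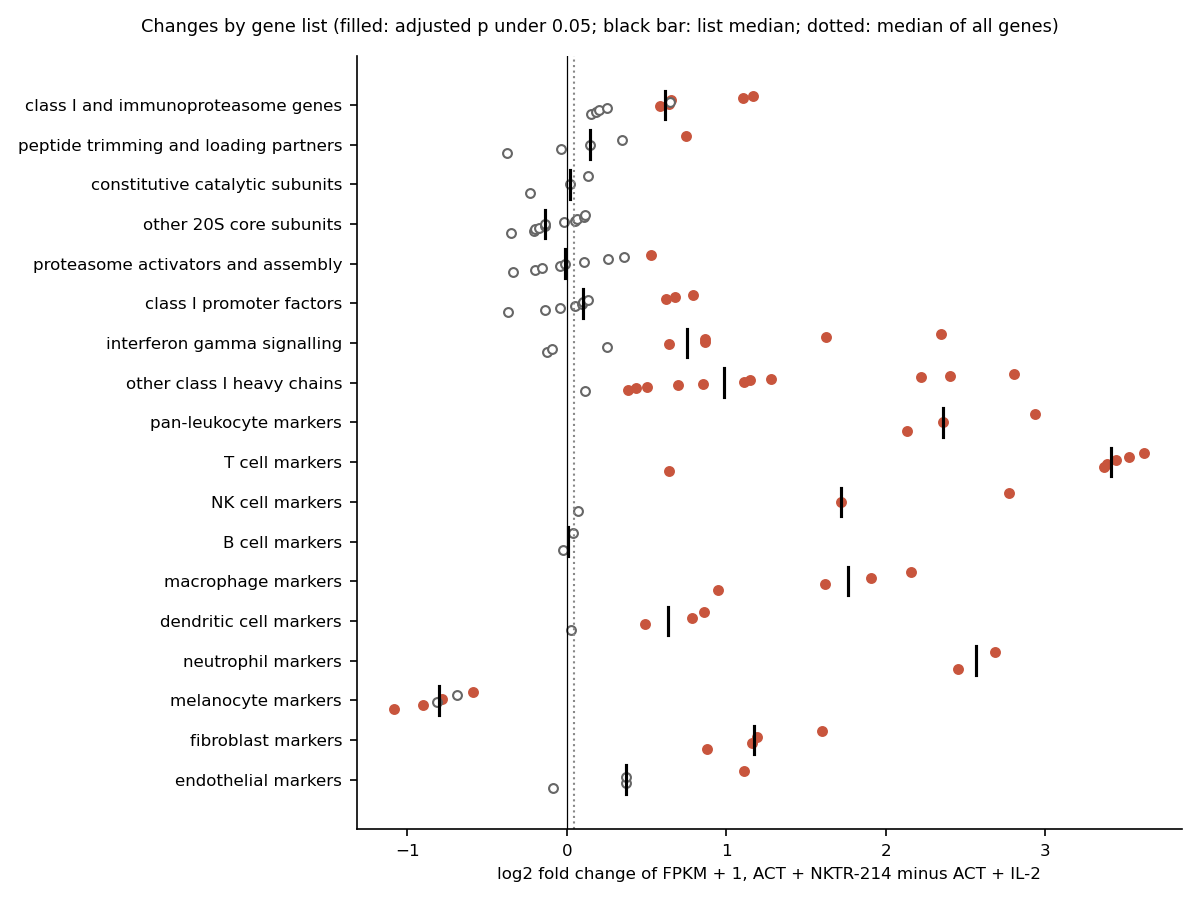
Log2 fold change of FPKM + 1 (ACT + NKTR-214 minus ACT + IL-2) of each tested gene, by gene list, with filled points for an adjusted p under 0.05 and a black bar for the median of the list. Interferon gamma signalling, other heavy chains and the pan-leukocyte, T cell, macrophage and neutrophil marker lists have their medians to the right of 0, the B cell markers and the 20S core subunits lie around 0, and melanocyte markers lie to the left.

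The plot by gene list sets the class I pathway beside markers of the cells a tumor can hold. In bulk tumor RNA, more cells of a type and more RNA per cell cannot be told apart. All 3 pan-leukocyte markers were higher in ACT + NKTR-214, with summed levels of 37.9 to 78.3 FPKM in ACT + IL-2 and 207 to 378 FPKM in ACT + NKTR-214. All 6 T cell markers were higher (9.21 to 22.5 against 119 to 261 FPKM), as were 2 of 3 NK cell markers (0.806 to 2.69 against 8.33 to 18.6 FPKM), 4 of 4 macrophage markers (66.4 to 167 against 279.6 to 413 FPKM), 3 of 4 dendritic cell markers (2.85 to 4.58 against 4.51 to 9.59 FPKM) and 2 of 2 tested neutrophil markers (1.72 to 4.23 against 15.2 to 38.4 FPKM, with Ly6g at 0 in 5 tumors). The NK cell marker that did not pass was Ncr1, whose groups overlapped. Its mean FPKM was 0.582 against 0.672, ACT + IL-2 first (log2 fold change 0.07, limma adjusted p = 0.799). The summed rise of the NK cell list thus came from Klrb1c and Klre1. All 4 fibroblast markers (140.6 to 401 against 372 to 724 FPKM) and 1 of 4 endothelial markers (19.9 to 42.8 against 31.0 to 63.4 FPKM) were higher. B cell markers were low, with 0 of 2 tested genes called in either direction, also at an unadjusted p under 0.05 (0.850 to 1.97 against 0.960 to 1.54 FPKM). Of these B cell genes, Ms4a1 was at 0 in 4 tumors.

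Melanocyte markers, which label the tumor cells, were lower for 4 of 6 genes and higher for 0 (6 of 6 lower at an unadjusted p under 0.05, with no overlap between groups), with summed levels of 5314 to 6813 FPKM in ACT + IL-2 and 2644 to 3725 FPKM in ACT + NKTR-214. Of these, 6 were lower after 75th percentile scaling, after quantile normalization and without ACT + IL-2 replicate 2, and 1 was lower with no minimum FPKM and without ACT + IL-2 replicate 3, ACT + NKTR-214 replicate 1 or ACT + NKTR-214 replicate 2. Other marker counts moved with the processing and with single tumors too. Of 4 fibroblast markers, 2 were higher after 75th percentile scaling and after quantile normalization and 1 with no minimum FPKM, and 1 dendritic cell marker was higher after quantile normalization. Endothelial markers higher were 0 with no minimum FPKM and 2 with the replicate block. Without ACT + IL-2 replicate 2, 0 fibroblast, 0 endothelial, 0 dendritic cell and 2 macrophage markers were higher. Leaving out other tumors gave 1 B cell marker and 3 endothelial markers higher without ACT + IL-2 replicate 1, and endothelial counts of 2 without ACT + NKTR-214 replicate 1 and 3 without ACT + NKTR-214 replicate 3. The ratio of the leukocyte marker Ptprc to H2-K1, chosen after its values were seen and not tested, was 0.0319, 0.0230 and 0.0175 in ACT + IL-2 and 0.0667, 0.0663 and 0.0434 in ACT + NKTR-214. The part of the marked cells in the levels of the class I genes was not tested.

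Of the 10 genes, 7 lie within 1.35 Mb of chromosome 17, in the mouse MHC, and Psmb9, Tap1, Psmb8 and Tap2 lie next to each other within 34.3 kb. Of these neighbours, Tap2 and Psmb8 passed, and Tap1 and Psmb9 did not. Between the start of Tapbp and the end of H2-D1, 77 other genes were tested, of which 27 (35.1%) were higher and 1 lower in ACT + NKTR-214, with a median log2 fold change of 0.21. Over all genes tested, 20.7% were higher and 8.28% lower, with a median of 0.05.

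The mean profile of the 10 genes, centred on each gene's own mean, was -0.04, -0.45 and -0.35 in ACT + IL-2 and 0.28, 0.36 and 0.20 in ACT + NKTR-214 on the log2 scale. Of 11548 other genes with a mean of at least 1 FPKM, Slc41a3 was nearest to this profile, with a root mean square difference of 0.0150 over the 6 tumors. The next nearest were Creb5 (0.0316), Dok1 (0.0332), Sbno2 (0.0358) and Abr (0.0366).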

How the data were processed

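Per the study's methods, the authors mapped 50-base single-end reads to GRCm38 with HISAT2 2.0.4, used HTSeq for counts per gene and deposited linear FPKM values, 1 column per tumor; the annotation and strand setting are not given in the sources used here. All 6 columns were used. Library depth is not stated. From the steps of low FPKM values, relative depths were 0.877 to 1.03 of ACT + IL-2 replicate 1, and with GENCODE vM21 exon lengths about 20800000 to 24500000 reads, or about 3100 to 80200 reads behind a value of the 10 genes. These read counts are rough: 38.9% of the genes with a clear step set the depth, and the authors' exon lengths may differ. Summed FPKM was lowest in ACT + IL-2 replicate 2.

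Values were taken as log2(FPKM + 1), a scale that understates changes of low genes. Limma 3.58.1 (R 4.3.3, eBayes with trend) compared the 14172 genes whose mean FPKM reached 0.1, and p-values were adjusted over all of them by Benjamini-Hochberg, with a threshold of 0.05. Signs are ACT + NKTR-214 minus ACT + IL-2. Ratios were compared with two-sided exact permutation tests. The fit was tested on simulated data. Tables and figures used Python 3.11.15.

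The 10 genes and all lists were chosen with earlier results of these data known. Named are the 10 genes, the extremes of each pathway list, Ifng, Irf1, Ciita, Psmb5, Psmb6, Psmb7, Psme1 and Psme2, and the 5 genes nearest in profile. Other genes named were chosen after their values were seen. Some listed genes are not reported here. Promoter windows are from RefSeq.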

Additional observations from a re-analysis of the deposited data

How the results depend on the processing

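The alternatives were a pseudocount of 0.1, no minimum and a minimum mean of 1 FPKM, 75th percentile scaling, quantile normalization, limma without its trend, the replicate number as a block, and each tumor left out. H2-K1 and Tap2 passed under all 13, H2-D1 under 12 (adjusted p = 0.0567 with no minimum), Tapbp and Psmb8 under 10, B2m under 3, and Tap1, Psmb9, Psmb10 and Nlrc5 under 0. Of the 10 genes, 4 to 6 were higher on all tumors and 3 to 5 with a tumor left out, 3 without ACT + IL-2 replicate 3 or without ACT + NKTR-214 replicate 2. In these last fits fewer of all 14172 genes were higher too, at 2477 and 2428, respectively, against 2940 in the main fit. The count over all genes was lowest, at 2004, without ACT + IL-2 replicate 2, where 4 of the 10 genes were higher. The median log2 fold change of the 10 genes was 0.52 to 0.74 with a tumor left out and 0.38 after quantile normalization, which shifted the median of all genes by -0.15. The log2 fold change of Psmb9 reversed there, to -0.0011.

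After 75th percentile scaling and after quantile normalization, 2 loading genes were higher and 1 lower (1 lower also without the trend), 1 constitutive catalytic subunit was lower, 6 other 20S core subunits were lower, and 2 activators and assembly factors were higher and 3 lower. Promoter factors lower were 1 after 75th percentile scaling and 2 after quantile normalization. With a tumor left out, loading genes lower, 20S core subunits lower and promoter factors lower were each 0 to 1, and activators and assembly factors were 0 to 2 higher and 0 to 1 lower. The cause of these shifts was not tested. The 6 ratios, which were recomputed only with a pseudocount of 1, with the replicate block and with each tumor left out, kept their direction there.

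Whether same-numbered tumors were paired is not given in the sources used here. Their deviations from the group means correlated at -0.21, -0.07 and 0.40. These values were not set against tumors of different numbers, so they cannot decide whether the tumors were paired. With the replicate block, 5 of the 10 genes were higher, and over all genes 3090 were higher and 1227 lower, against 2940 and 1173 without it.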
